A study of Homo sapiens with 10 samples.

Results

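The 9 enzymes that turn farnesyl diphosphate into squalene and squalene into cholesterol were examined in ARPE-19 cells, an established human retinal pigment epithelium (RPE) cell line. They are FDFT1, SQLE, LSS, CYP51A1, MSMO1, NSDHL, EBP, SC5D and DHCR7, taken by gene symbol from the deposited table of read counts, and all 9 were found among its 22626 rows. The cells had been kept for 48 h in control medium with 5.5 mM glucose and 32 mM mannitol (MG group, n = 5) or in medium with 37.5 mM glucose (HG group, n = 5). Mannitol is a sugar alcohol that brings the control medium to the same osmotic load, so the groups differ in glucose and in mannitol at once, and the parts of the 2 cannot be told apart. The labels do not say that the 5 libraries of a group came from separate cultures, so p-values measure only the spread among these libraries. MG_1 to MG_5 are the control replicates, and HG_1 to HG_5 are the deposited columns of the HG group, whose labels match no single column.

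Cholesterol synthesis starts from acetyl-CoA and runs through mevalonate to farnesyl diphosphate, the branch point for sterols and other isoprenoids. FDFT1 commits this intermediate to sterols, and the later enzymes, all bound to membranes of the endoplasmic reticulum, oxidise, cyclise and trim squalene until cholesterol remains. Most genes of the pathway are targets of SREBP2, a transcription factor held in the endoplasmic reticulum by SCAP and the INSIG proteins while sterols are plentiful and released by proteolysis when sterols run low. SREBPs bind DNA weakly alone and work beside NF-Y, which binds the CCAAT box, and Sp1, which binds GC boxes. In the eye, the RPE makes cholesterol, takes it up from lipoproteins and passes it on to the neural retina and the choroid.

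All 9 enzyme genes were higher in the HG group, with fold changes from 1.47 (SQLE) to 2.02 (MSMO1) and a median log2 fold change of 0.70, against 0.0013 over all genes tested. With edgeR's quasi-likelihood test and Benjamini-Hochberg adjustment over 14936 genes, all 9 had an adjusted p under 0.05. Of all genes tested, 15.4% passed this threshold, 7.62% higher in HG and 7.8% lower. For all 9 genes every HG library lay above every MG library, a pattern that 6.74% of the tested genes showed, and in 13.6% the groups did not overlap in either direction. In CPM, the counts scaled to a common library size by TMM normalization, the 9 genes together were at 1712 ± 233 CPM in MG (SD, n = 5) and 2912 ± 56.5 CPM in HG (SD, n = 5), or 0.171% and 0.291% of all normalized counts. In bulk RNA, a change per cell and a change in the share of cells that carry the transcript cannot be told apart.

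**Figure D1:**
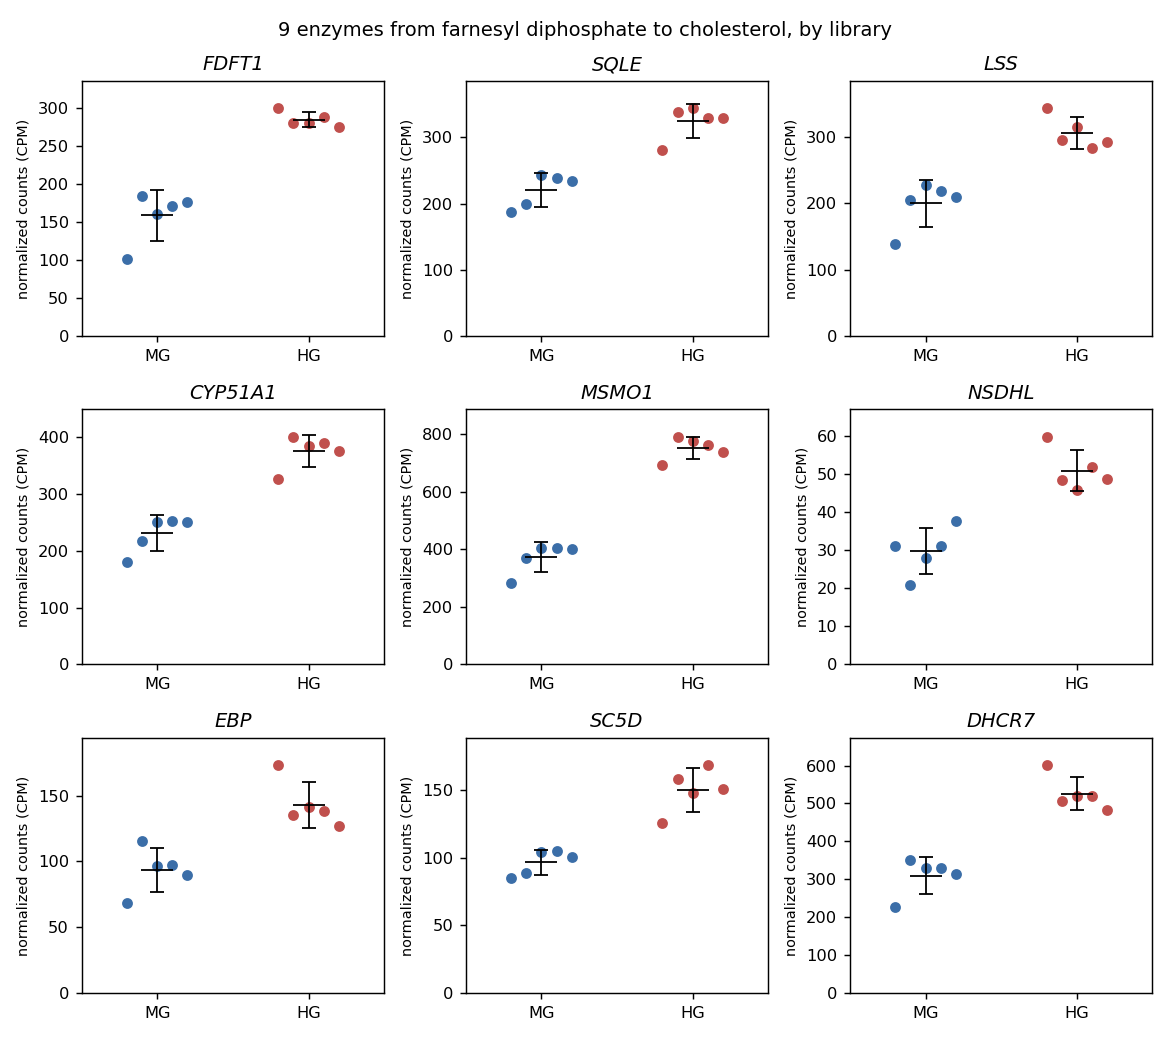
Normalized counts (CPM, linear axis from 0) of each enzyme gene in the 5 MG and the 5 HG libraries, with mean and SD, drawn in pathway order and from library 1 at the left to library 5 at the right of each group. In each panel the HG points lie above all MG points, and the lowest MG point is MG_1 in 8 of the 9 panels.

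The MG libraries held between 33039260 and 45864176 counts and the HG libraries between 32448991 and 44400714, and a gene with 0 counts could have had up to 3, or at most 0.0925 CPM, by counting error alone. The smallest count of an enzyme gene was 933 (NSDHL). Libraries HG_1 and MG_2 stood apart from the others on the second principal component, which held 14.9% of the variance. Their counts rose with the GC content of the gene by 0.19 and 0.17 log2 units per 10 percentage points of GC, while the other 8 libraries had slopes between -0.092 and -0.0052. TXNIP, a gene known to respond to glucose, had between 0.81 and 1.23 CPM in MG and between 5.38 and 12.95 CPM in HG, which follows the labels. Of 11 RPE markers, TTR was at 0 in all libraries, RPE65 had at most 6 counts, TYR at most 34 and DCT at most 17, and the other 7 were tested. PMEL, a pigment granule protein, was the only one of them to pass the test, and it fell by 0.72 log2 units in HG (adjusted p = 0.00854), from 3.59 ± 0.43 to 2.19 ± 0.35 CPM (SD, n = 5 each) without overlap. OTX2 (96.2 ± 3.98 CPM in MG and 88.8 ± 1.31 CPM in HG), MITF (57.8 ± 4.79 and 50.2 ± 4.37 CPM) and RLBP1 (10.98 ± 1.51 and 8.79 ± 1.44 CPM) were present, with log2 fold changes of -0.12, -0.20 and -0.32 and adjusted p of 0.0814, 0.102 and 0.134 in edgeR. The summed RPE markers ranged from 166 to 718 CPM in MG and from 151 to 163 CPM in HG, and their upper end in MG came from BEST1 in MG_4 (552 CPM) and MG_1 (264 CPM). Markers of other cell types moved with the groups too. The epithelial keratins KRT8 and KRT18 fell by 0.62 and 0.68 log2 units in HG, with CDH1 and EPCAM at no more than 9 counts, and the summed list ranged from 2661 to 3288 CPM in MG and from 1638 to 2315 CPM in HG. Of 4 mesenchymal markers 3 fell (COL1A1, ACTA2 and PDGFRB) and the sums were 5777 to 6271 CPM in MG and 5938 to 6935 CPM in HG, most of it VIM. Of 3 immune markers CD68, a lysosomal protein, rose by 0.70 log2 units, and it made up nearly all of the sums of 54.5 to 81.1 CPM in MG and 102 to 144 CPM in HG, since AIF1 was at 0 and PTPRC at no more than 4 counts. Of 4 endothelial markers KDR fell, at sums of 2.93 to 5.05 CPM in MG and 2.13 to 3.01 CPM in HG with CDH5 at 0. Of the photoreceptor and neuronal markers CRX was at 0, and the summed list stayed below 0.34 CPM. The part of these shifts in the enzyme values was not tested.

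Coordinates are given on GRCh38 from GENCODE release 29. LSS is at chr21:46188141-46228824 and CYP51A1 at chr7:92112151-92134803, both on the minus strand. MSMO1 is at chr4:165327623-165343160, NSDHL at chrX:152830967-152869729, EBP at chrX:48521158-48528716 and SC5D at chr11:121292453-121308694, all on the plus strand, and DHCR7 is at chr11:71428193-71452868 on the minus strand. Some of these transcripts share sequence with other annotated genes. Of the 100-base windows of the CYP51A1 transcript, 88.3% also occur in an overlapping gene of the same strand (ENSG00000285772), whose own row held at most 2 counts, and some also occur in the pseudogenes CYP51A1P1 and CYP51A1P2, so the CYP51A1 counts are uncertain to that extent. For LSS 7.81% and for FDFT1 4.02% of the windows lie under antisense genes, and whether counting used strand is not given in the sources used here. The other 6 shared no window with another gene.

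Since the genes rose together, the 250 bases before their start sites were read from RefSeq (GRCh38.p14). Of the 9 genes, 7 had an entry, with 9 windows among them, while FDFT1 and SQLE had none and were not searched. CCAAT, searched on both strands, was found in 7 of the 9 windows, against 32.0% of 35116 promoter windows of all genes. The windows with CCAAT belong to 6 of the 7 genes with an entry (all but CYP51A1). GGGCGG, the core of the GC box, was also found in 7 of the 9 windows, against 42.6%. The windows with GGGCGG belong to 6 of the 7 genes with an entry (all but NSDHL). DHCR7 and SC5D have 2 windows each, those of SC5D overlapping, and neither motif was found in the second window of DHCR7. CACGTG, the E-box, was found in both windows of SC5D alone (6.34% of all windows). A pair of short spellings of the sterol response element, TCACNCCAC (0.883% of windows) and CACCCCAC (2.43%), which overlap each other, were found in none of the 7, which says only that these letters are not in these windows. A match is a description of the letters and not of a bound site. For the 4 genes in which it holds a CCAAT box, the longest stretch of the window outside annotated exons is shown. The sequences show how many boxes there are and how they lie. The stretch of DHCR7 lies within its annotated gene. Capitals mark CCAAT or, where the box is on the other strand, ATTGG, and each sequence is written 5′ to 3′ on the strand of its gene.
MSMO1, chr4:165327419-165327622, plus strand: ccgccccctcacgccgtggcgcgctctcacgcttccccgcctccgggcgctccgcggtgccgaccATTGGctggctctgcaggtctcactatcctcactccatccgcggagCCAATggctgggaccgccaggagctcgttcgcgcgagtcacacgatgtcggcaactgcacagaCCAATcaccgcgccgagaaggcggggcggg
NSDHL, chrX:152830813-152830966, plus strand: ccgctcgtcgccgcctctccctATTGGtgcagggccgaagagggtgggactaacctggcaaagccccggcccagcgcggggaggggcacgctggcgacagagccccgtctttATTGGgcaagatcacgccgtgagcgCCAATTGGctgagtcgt
DHCR7, chr11:71448436-71448643, minus strand: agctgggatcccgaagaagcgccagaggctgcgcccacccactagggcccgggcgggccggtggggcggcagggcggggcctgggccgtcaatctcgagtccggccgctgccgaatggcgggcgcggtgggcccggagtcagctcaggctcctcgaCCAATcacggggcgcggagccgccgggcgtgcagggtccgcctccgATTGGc
LSS, chr21:46228825-46229024, minus strand: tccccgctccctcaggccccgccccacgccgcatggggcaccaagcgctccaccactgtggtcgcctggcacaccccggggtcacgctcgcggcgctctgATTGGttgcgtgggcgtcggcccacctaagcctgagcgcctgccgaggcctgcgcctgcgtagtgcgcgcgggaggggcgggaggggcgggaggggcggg
MSMO1 shows 3 boxes in this stretch, NSDHL 4, of which 2 overlap as CCAATTGG, DHCR7 2 and LSS 1. Over the whole windows NSDHL held 5 and MSMO1 4, and CYP51A1 held none. Whether the boxes have a part in the fold changes was not tested.

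FDFT1, squalene synthase, joins a pair of farnesyl diphosphate molecules into squalene, and its gene is at chr8:11795573-11839309 on the plus strand. Its normalized counts were 101, 184, 161, 171 and 176 CPM in MG_1 to MG_5. In HG_1 to HG_5 they were 299.6, 280.2, 280.4, 289 and 275 CPM. The HG libraries were tightly grouped and MG_1 was well below the other controls. The mean rose from 159 ± 33.0 to 285 ± 9.72 CPM (SD, n = 5 each), a fold change of 1.79 (95% interval 1.46 to 2.2, log2 0.84, SE 0.13, adjusted p = 0.00184). Without MG_1 the log2 fold change was 0.72 (SE 0.049).

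SQLE, squalene epoxidase (chr8:124998497-125022283, plus strand), uses oxygen to make the epoxide and is a known rate-limiting step. Its MG libraries had 187, 199, 244, 238 and 234 CPM. Its HG libraries had 281, 339, 344, 329.9 and 329.8 CPM. Here MG_1 and MG_2 were the low controls and HG_1 the low library of its group, yet the groups did not overlap. The mean went from 221 ± 25.6 to 325 ± 25.0 CPM (SD, n = 5 each), or 1.47-fold (95% interval 1.29 to 1.68, log2 0.56, SE 0.085, adjusted p = 0.00149).

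LSS, lanosterol synthase, closes the epoxide into the sterol ring system. Counts of LSS were 139, 206, 228, 219 and 210.1 CPM in the MG libraries. They were 344, 295, 315, 284 and 293 CPM in the HG libraries. MG_1 was again the low control, and HG_1 was here the high library of its group. The change from 201 ± 35.3 to 306 ± 23.7 CPM (SD, n = 5 each) was 1.53-fold (95% interval 1.27 to 1.83, log2 0.61, SE 0.12, adjusted p = 0.00583), and 0.50 on the log2 scale (SE 0.062) without MG_1.

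CYP51A1, the cytochrome P450 that demethylates lanosterol, had 181, 218, 251, 253 and 251 CPM in MG_1 to MG_5. The HG values were 327, 401, 385, 390.1 and 375 CPM. MG_1 and MG_2 were low among the controls and HG_1 was low among the HG libraries, without overlap. The mean rose from 231 ± 31.5 to 376 ± 28.7 CPM (SD, n = 5 each), 1.63-fold (95% interval 1.41 to 1.88, log2 0.70, SE 0.095, adjusted p = 0.000875). 

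MSMO1, the monooxygenase that oxidises the methyl groups left at the same ring carbon, had 282, 368, 403, 403 and 401 CPM in the MG libraries. In the HG libraries it had 692, 789.9, 774, 760.0 and 737 CPM. The gap between the lowest HG and the highest MG library was wide against the spread in either group. Its mean of 372 ± 52.4 CPM became 751 ± 38.0 CPM (SD, n = 5 each), 2.02-fold (95% interval 1.75 to 2.33, log2 1.01, SE 0.094, adjusted p = 0.000115), and it was the only one of the 9 to reach a log2 fold change of 1.

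NSDHL, the dehydrogenase that follows MSMO1 in removing these methyl groups, was the least counted of the enzymes. MG_1 to MG_5 had 31.0, 20.9, 27.8, 31.1 and 37.7 CPM. HG_1 to HG_5 had 59.7, 48.4, 45.7, 51.7 and 48.8 CPM. In this gene the low control was MG_2, not MG_1, and HG_1 was the highest library. Its mean rose from 29.7 ± 6.09 to 50.9 ± 5.41 CPM (SD, n = 5 each), 1.71-fold (95% interval 1.39 to 2.11, log2 0.78, SE 0.14, adjusted p = 0.00343). With MG_2 and HG_1 both left out the log2 fold change was 0.61 (SE 0.086).

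EBP, the isomerase that shifts a ring double bond and also binds emopamil, had 68.3, 115, 96.2, 97.4 and 89.8 CPM in the MG libraries. The HG libraries had 173, 136, 142, 138 and 127 CPM. Among the 9 genes this was the narrowest separation in relative terms: the top control, MG_2, came close to the lowest HG library, HG_5. Its mean changed from 93.4 ± 17.0 to 143 ± 17.7 CPM (SD, n = 5 each), 1.53-fold (95% interval 1.26 to 1.86, log2 0.61, SE 0.13, adjusted p = 0.00856).

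SC5D, the desaturase that adds a second ring double bond, had 85.0, 89.0, 104, 105 and 101 CPM in MG. It had 125.5, 158, 148, 169 and 151 CPM in HG. The low library of each group was its library 1. The mean rose from 96.8 ± 9.19 to 150.2 ± 16.0 CPM (SD, n = 5 each), 1.55-fold (95% interval 1.36 to 1.77, log2 0.63, SE 0.087, adjusted p = 0.000902). On the FPKM scale of the second deposited table the groups overlapped, with 20.5 FPKM in the highest MG library and 16.7 FPKM in the lowest HG library. FPKM of this gene did not follow CPM by a fixed factor. That highest MG library, MG_3, had 104.3 CPM, while MG_4 had 104.9 CPM and 14.3 FPKM. The reason for this was not tested.

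DHCR7, the reductase that turns dehydrocholesterol into cholesterol, had 226, 352, 329.9, 329 and 312 CPM in MG_1 to MG_5. Its HG values were 601, 507, 521, 520.1 and 482 CPM. MG_1 was low and HG_1 high, with the other libraries of each group close together. From 309.7 ± 49.0 CPM the mean rose to 526 ± 44.6 CPM (SD, n = 5 each), 1.70-fold (95% interval 1.44 to 2.01, log2 0.76, SE 0.11, adjusted p = 0.00111).

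FPKM divides by transcript length so that levels can be compared between genes, though for SC5D its ratio to CPM changed between libraries. In FPKM, MSMO1 stood highest in MG (157 ± 23.0 FPKM, SD, n = 5), followed by DHCR7 (109.9 ± 16.6 FPKM) with overlapping libraries. EBP, FDFT1, SQLE and CYP51A1 formed a middle group with means between 68.3 and 77.5 FPKM whose libraries overlapped each other and, for EBP, those of DHCR7. LSS followed at 41.9 ± 7.91 FPKM, with libraries up to 49.3 FPKM, which overlapped those of FDFT1 (down to 43.8 FPKM) and lay below those of EBP, SQLE and CYP51A1. NSDHL (15.8 ± 3.78 FPKM) and SC5D (14.4 ± 3.64 FPKM) came last and did not differ beyond their spread. These overlaps are between libraries: within each MG library MSMO1 was above DHCR7, DHCR7 above EBP and LSS below FDFT1. In HG the order was MSMO1 (319 ± 23.3 FPKM), DHCR7 (188 ± 12.96 FPKM), FDFT1 (136 ± 4.65 FPKM), EBP (119 ± 12.2 FPKM), CYP51A1 (112 ± 11.1 FPKM), SQLE (103 ± 9.90 FPKM), LSS (64.0 ± 2.46 FPKM), NSDHL (27.5 ± 2.06 FPKM) and SC5D (23.4 ± 5.10 FPKM). In this group the libraries of MSMO1, DHCR7 and LSS did not overlap those of any neighbour in the order, and the 4 genes from FDFT1 to SQLE overlapped their neighbours, as did NSDHL and SC5D. Within each HG library, though, FDFT1 was above EBP and CYP51A1 above SQLE. On this scale the MG and HG libraries of 8 of the 9 genes did not overlap. In CPM, each gene's mean exceeded that of between 65.1% (NSDHL) and 98.6% (MSMO1) of the genes tested.

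The libraries that were high or low were not the same for all 9 genes. HG_1 was the highest HG library for 5 genes, FDFT1, LSS, NSDHL, EBP and DHCR7, whose longest coding transcripts have a GC content between 48.6% and 58.3%. It was the lowest for the other 4, SQLE, CYP51A1, MSMO1 and SC5D, with a GC content between 38.1% and 46.5%. Its distance from the mean of the other HG libraries ran from -0.32 (SC5D) to 0.35 (EBP) in log2 CPM. MG_1 was the lowest control for 8 of the 9 genes, by between 0.23 (SC5D) and 0.77 (FDFT1) log2 units below the mean of the other controls, while for NSDHL it was 0.11 above. Summed over the 9 genes MG_1 had 1300 CPM and the other controls between 1752 and 1847 CPM. With an offset for GC content and transcript length, added after the data had been seen, the log2 fold changes of the 9 genes were between 0.54 (SQLE) and 0.95 (MSMO1), and without MG_1 between 0.50 (SQLE and LSS) and 0.93 (MSMO1), and all 9 were called in both.

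**Figure D2:**
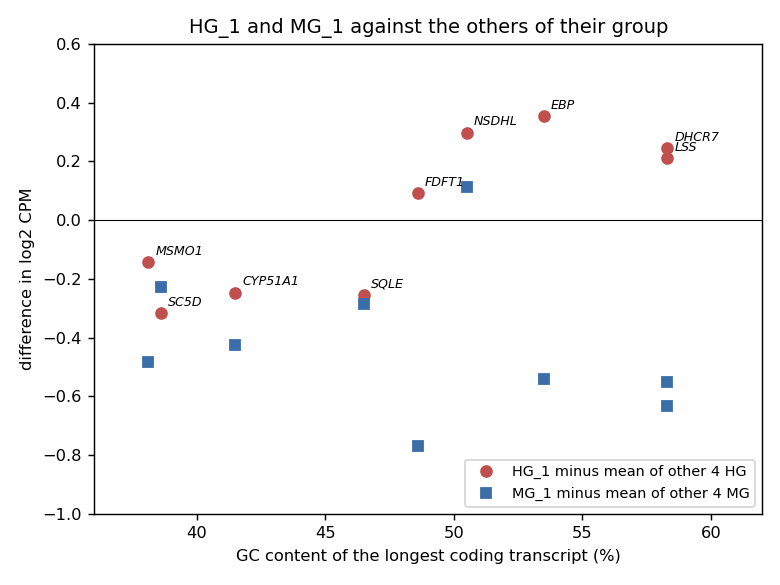
Difference in log2 CPM between HG_1 and the mean of the other 4 HG libraries (red circles, named by gene) and between MG_1 and the mean of the other 4 MG libraries (blue squares, same gene at the same GC content), against the GC content of each gene's longest coding transcript in percent; DHCR7 and LSS share a GC content of 58.3%. HG_1 lies below 0 for the 4 genes of lowest GC content and above 0 for the other 5, and MG_1 lies below 0 for all but NSDHL.

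Whether enzymes next to each other in the order of the 9 rose by unequal folds was tested on the log2 ratio of their normalized counts within each library, for 8 pairs. These are neighbours among the 9 only, since steps of other enzymes lie between some of them, such as that of HSD17B7 between NSDHL and EBP. Library size and gene length cancel in the difference of such a ratio between the groups. The ratio of MSMO1 to CYP51A1 was 0.69 ± 0.043 in MG and 1.00 ± 0.049 in HG (log2, SD, n = 5 each), a difference of 0.31. The libraries lay between 0.64 and 0.76 in MG and between 0.96 and 1.08 in HG, without overlap. An exact two-sided permutation test gave p = 0.00794, the smallest that 5 against 5 libraries allow, and an adjusted p over 8 pairs of 0.0635, which a single pair at that limit cannot go below. Without MG_2 this pair (difference 0.33) and the pair SQLE and FDFT1 (difference -0.41) both had an adjusted p of 0.032 in the exact permutation test. With all libraries, SQLE to FDFT1 fell from 0.50 ± 0.28 to 0.19 ± 0.16 in the mean log2 ratio, with an exact permutation p of 0.0635 (adjusted 0.254, n = 5 each) and overlapping groups. The other 6 pairs had differences between -0.23 (NSDHL to MSMO1) and 0.14 (DHCR7 to SC5D), with adjusted p between 0.677 and 0.952 in the exact permutation test, and SDs in MG from 0.11 (CYP51A1 to LSS) to 0.53 (EBP to NSDHL) log2 units. Single libraries moved these differences: NSDHL to MSMO1 was -0.11 without MG_1 and -0.44 without MG_2 and HG_1, and DHCR7 to SC5D was 0.032 without HG_1 and 0.22 without MG_2.

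**Figure D3:**
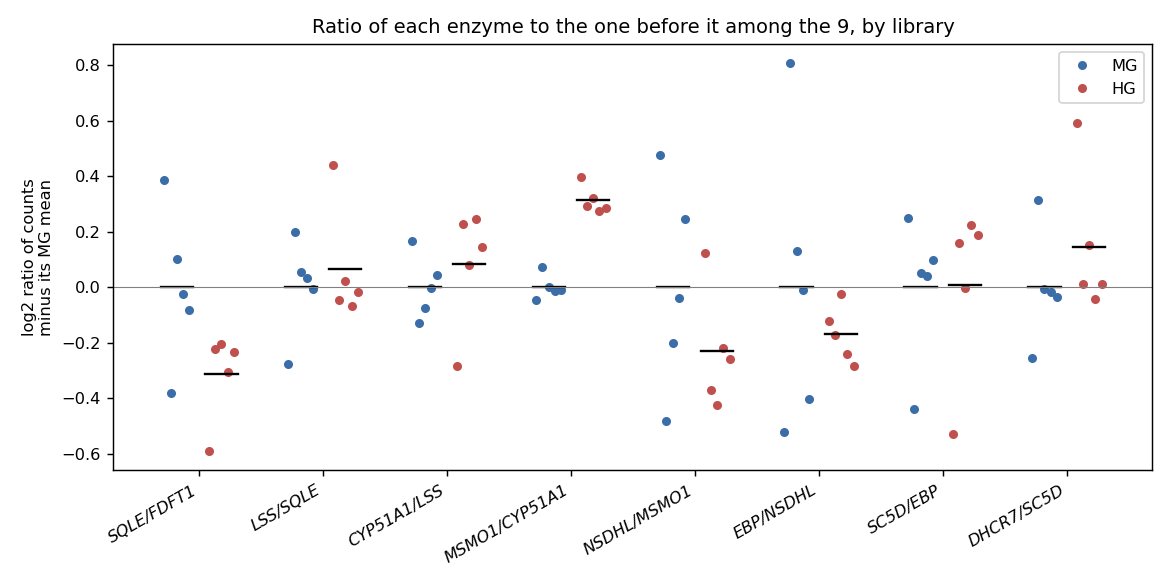
Log2 ratio of the normalized counts of each enzyme to the one before it among the 9 (steps of other enzymes between them are skipped), after subtraction of the MG mean of the pair, in the 5 MG (blue) and 5 HG (red) libraries with group means as bars. The MSMO1 to CYP51A1 ratio separates the groups (HG mean 0.31 above MG, with little spread in either), and in the other 7 pairs the groups overlap.

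The steps before squalene moved with these enzymes. Of 8 genes of the mevalonate arm, 7 were higher in HG with a median log2 fold change of 0.74 over all 8. HMGCS1, the synthase of hydroxymethylglutaryl-CoA, rose by 1.06 (SE 0.14, adjusted p = 0.000609). IDI1, the isomerase of isopentenyl diphosphate, rose by 1.14 (SE 0.10) and MVD, the decarboxylase that makes it, by 1.02 (SE 0.16). ACAT2, MVK and FDPS rose by 0.74, 0.63 and 0.73. The exception was PMVK, phosphomevalonate kinase, with 32.1 to 42.7 CPM in MG and 29.3 to 43.9 CPM in HG (log2 fold change -0.12, SE 0.12, adjusted p = 0.603). For PMVK the upper end in HG was HG_1, and the value was -0.24 without HG_1 (adjusted p = 0.072) and -0.043 without MG_2. PMVK was called lower without MG_2 and HG_1 (-0.17), with 1 surrogate variable (-0.20) and with the GC and length offset (-0.16).

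The other genes of the steps after squalene moved less evenly. Of 5 genes, 3 were higher in HG and the median log2 fold change was 0.41. ERG28, a scaffold of the demethylation complex, rose by 0.62 (SE 0.088), TM7SF2, a reductase of the sterol ring, by 0.47 (SE 0.11) and HSD17B7, the ketoreductase after NSDHL, by 0.41 (SE 0.10). LBR, a nuclear membrane protein with the same reductase activity as TM7SF2, had 52.3 to 76.0 CPM in MG and 42.4 to 70.6 CPM in HG (log2 fold change -0.18, SE 0.14, adjusted p = 0.464).

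The oxidising enzymes SQLE, CYP51A1, MSMO1 and SC5D draw electrons from POR or from cytochrome b5 and its reductase. Of 4 such genes only CYB5B passed the test, with 115 to 134 CPM in MG and 162 to 174 CPM in HG (log2 fold change 0.40, SE 0.049, adjusted p = 0.000462), a call that was lost on FPKM values with limma (0.23 on the log2(FPKM + 1) scale, adjusted p = 0.51). The log2 fold changes of POR (0.22, adjusted p = 0.120), CYB5R3 (0.16, adjusted p = 0.254) and CYB5A (-0.020, adjusted p = 0.934) did not pass. CYB5R3 and POR passed the test, both higher, when MG_2 and HG_1 were left out, with 1 surrogate variable and with the GC and length offset, and POR also without MG_2 (0.29).

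Among 7 genes that control SREBP, INSIG1 alone passed. INSIG1, which retains SCAP in the endoplasmic reticulum and is itself an SREBP target, had between 108 and 173 CPM in MG and between 259 and 317 CPM in HG (log2 fold change 0.93, SE 0.12, adjusted p = 0.000684). For its relative INSIG2 the log2 fold change was 0.043 (adjusted p = 0.791). SREBF2, which encodes SREBP2, had 353 to 406 CPM in MG and 397 to 422 CPM in HG (0.075, SE 0.044, adjusted p = 0.30), and SREBF1 had 0.083 (adjusted p = 0.610). SCAP (-0.15) and the proteases MBTPS1 (-0.16, adjusted p = 0.0509) and MBTPS2 (0.19) did not pass, and MBTPS1 crossed the threshold with DESeq2 (-0.16) and in 6 further alternatives. SCAP and MBTPS2 passed when MG_2 and HG_1 were left out (-0.16 and 0.17) and with 1 surrogate variable (-0.20 and 0.24), and SCAP also without HG_1 (-0.22), while without MG_2 they were at -0.086 and 0.12 and did not pass. SREBF1 and SREBF2 passed with the GC and length offset (0.16 and 0.13).

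In cholesterol uptake and export, 4 of 6 tested genes were higher and the median log2 fold change was 0.39. NPC1, which moves cholesterol out of lysosomes, had 224 to 284 CPM in MG and 364 to 410.5 CPM in HG (0.62, SE 0.068, adjusted p = 0.000250). Its soluble partner NPC2 (0.33, adjusted p = 0.0269) and the carrier STARD4 (0.50, adjusted p = 0.0203) passed by less and overlapped between the groups, and both lost the call when single libraries were left out, for instance HG_2 or MG_1. MYLIP (0.24) and the exporter ABCA1 (0.043) did not pass. ABCG1 had a count of 0 in all 10 libraries. Among 5 genes of enzyme degradation and close relatives, SOAT1, which esterifies cholesterol, was higher (0.33, adjusted p = 0.0247) and EBPL, a relative of EBP, lower (-0.21, adjusted p = 0.0264), and both were lost in several fits with 1 library left out, HG_2 and MG_1 among them. FAXDC2 and MARCHF6, the ubiquitin ligase for SQLE, had log2 fold changes of 0.11 and -0.12 and did not pass.

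**Figure D4:**
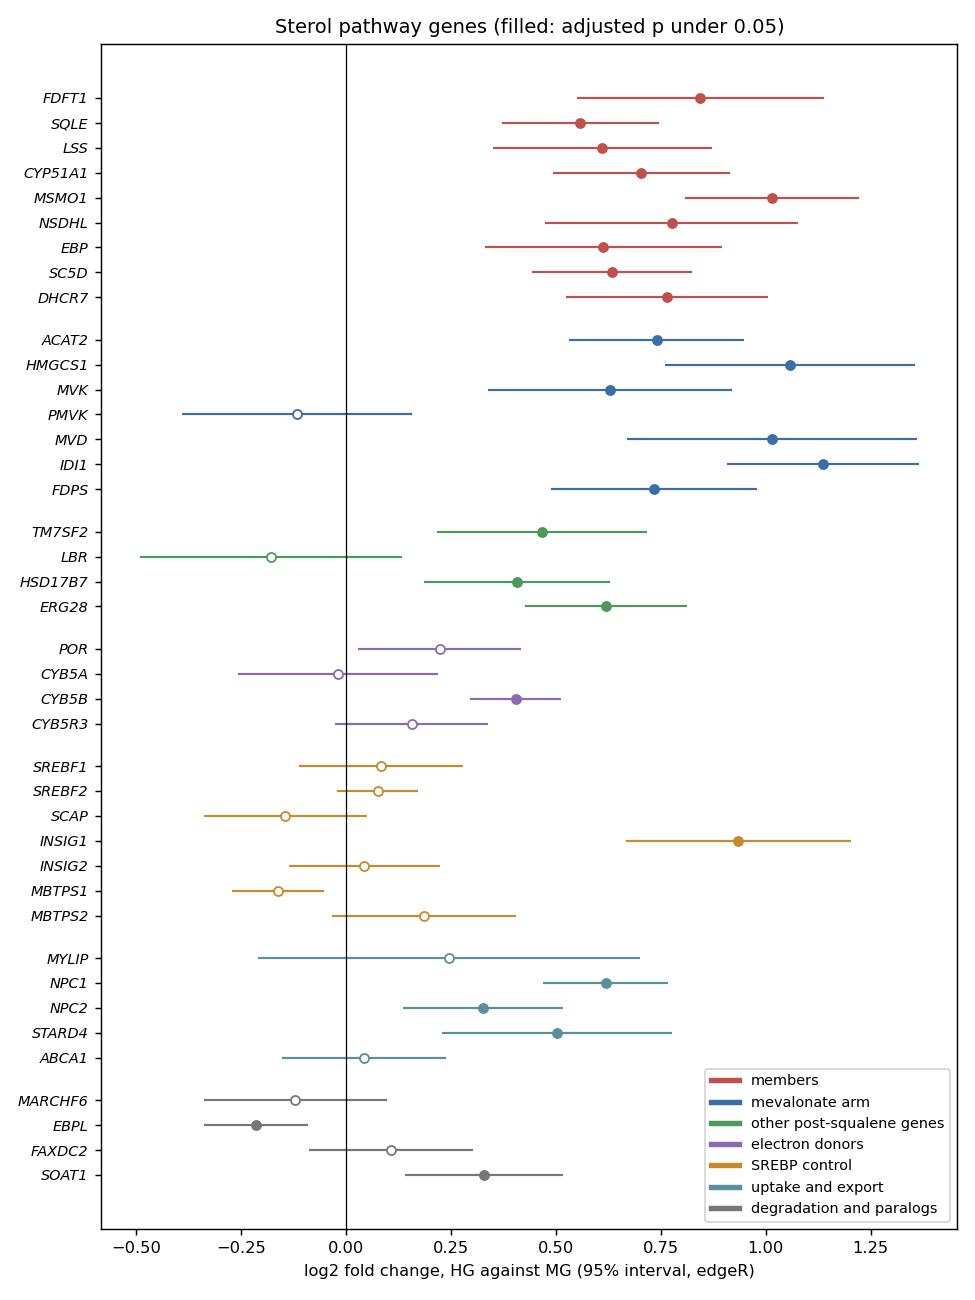
Log2 fold change, HG against MG, with 95% interval from edgeR for the 9 enzymes (top, labelled members) and named genes of 6 lists of sterol metabolism, filled where the adjusted p is under 0.05. The 9 enzymes lie between 0.56 and 1.01 with intervals above 0, and the mevalonate genes shown, apart from PMVK, lie beside them, while PMVK, LBR and most SREBP control genes have intervals that include 0.

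To describe which genes outside the 9 followed them most closely over the 10 libraries, log2 CPM of each gene was centred and compared with the mean centred profile of the 9 enzymes. This profile was between 0.32 and 0.39 in the HG libraries, -0.71 in MG_1 and between -0.37 and -0.25 in the other MG libraries. Of the enzymes, CYP51A1 (root mean square difference 0.084 log2 units) lay nearest to it and NSDHL (0.24) farthest. Among 13529 other genes with a mean of at least 1 CPM, the 8 nearest were ACAT2 (0.055), GM2A (0.061), PLIN2 (0.073), SLC11A2 (0.086), FADS1 (0.088), STRIP2 (0.090), GOT1 (0.094) and NPC1 (0.097). ACAT2 begins the mevalonate arm, GM2A is the lysosomal activator of ganglioside breakdown, PLIN2 coats lipid droplets, SLC11A2 carries iron, FADS1 desaturates fatty acids and GOT1 is an aspartate aminotransferase. PLIN2 went from 101 to 177 CPM and FADS1 from 255 to 427 CPM between the group means. These 8 were picked by their likeness, so their fold changes, log2 0.61 to 0.81, carry no test.

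**Figure D5:**
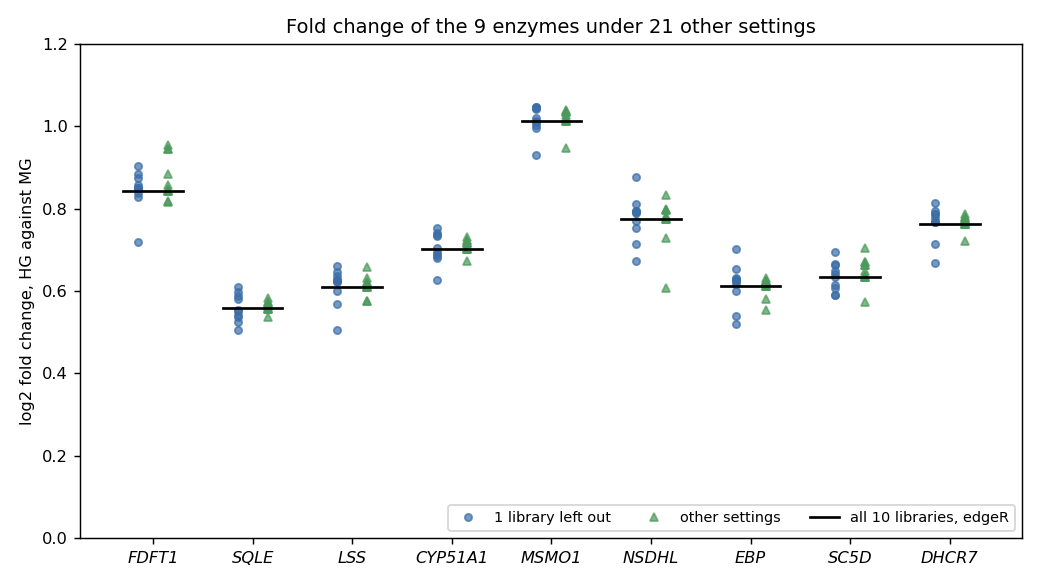
Log2 fold change of each enzyme with all 10 libraries in edgeR (black line), with 1 library left out in turn (blue circles) and under 11 other settings of normalization, filter, test, unit or correction (green triangles). Each gene stays above 0 in all 21 alternatives, and FDFT1 without MG_1 (0.72) and NSDHL without MG_2 and HG_1 (0.61) move most from their black lines.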

How the data were processed

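RNA of 10 ARPE-19 libraries was extracted with Trizol, and libraries were made from total RNA with a commercial kit. Per the labels' processing notes, reads were trimmed with fastp 0.20.1 and aligned with HISAT2 2.2.1 to GRCh38. The counting program, annotation and strand setting are not given in the sources used here. The authors deposited a table of whole-number read counts per gene, without normalization, and a table of FPKM values, divided by transcript length and library size. Depth was 32448991 to 45864176 counts per library.

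From the counts, R 4.3.3 with edgeR 4.0.16 (default filter on low counts, TMM, quasi-likelihood test, Benjamini-Hochberg over 14936 genes, threshold 0.05) compared 5 HG with 5 MG libraries, and log2 CPM used a prior count of 2. Ratios of enzymes next to each other among the 9 were tested with an exact permutation test. The 9 enzymes and the gene lists were chosen with earlier results of these data known. Named genes are the 9 enzymes, 6 lists and the 8 genes of nearest profile. Alternatives were RLE size factors, library size alone, DESeq2 1.42.0, no filter, at least 10 counts in every library, limma 3.58.1 on log2(FPKM + 1) or log2(FPKM + 0.1) and with a mean FPKM of at least 1, 1 surrogate variable from sva 3.50.0, libraries left out and, added after seeing the data, a GC and length offset (lowess, span 0.3, 13538 genes). Scripts were tested on simulated counts. Promoter sequences come from RefSeq (GRCh38.p14) and loci from GENCODE release 29. The list counts include some genes whose values are not reported here. Proteins and other assays of the study were not analysed here.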

Additional observations from a re-analysis of the deposited data

Results flagged for a closer look

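In each group of 5 libraries the highest or lowest value was set against the others by Dixon's ratio (critical value 0.710), for 108 groups of genes, ratios and the sum. In 18 groups a library was far from the others, where chance gives about 1 in 20, or 5.4. Most of these libraries were HG_1 or MG_1. The groups share libraries and genes, so they are not independent, and setting 18 against 5.4 is not a test. Of the 9 enzymes, FDFT1 was at 101.4 CPM in MG_1 against 161 to 183.7 CPM in the other controls, LSS at 139.2 against 206 to 228.1 CPM, and MSMO1 at 281.7 against 368.4 to 403.3 CPM. The 9 enzymes together were at 1300 CPM in MG_1 against 1752 to 1847 CPM, and ACAT2 was at 142.2 against 196.6 to 206.6 CPM. SQLE was at 281.3 CPM in HG_1 against 329.8 to 343.8 CPM in the other HG libraries. The log2 ratio of SQLE to FDFT1 was -0.09113 in HG_1 against 0.1916 to 0.2943, and that of LSS to SQLE was 0.2883 against -0.2168 to -0.1268.

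Among the listed genes HG_1 was high for PMVK (43.85 CPM against 29.25 to 32.07), FDPS (614.6 against 488 to 520.2), POR (71.31 against 57.15 to 59.42), CYB5A (37.51 against 27.46 to 28.93) and CYB5R3 (407.5 against 299.9 to 327.3). It was low for INSIG2 (32.99 CPM against 42.03 to 43.35), NPC1 (363.8 against 402.9 to 410.5) and STARD4 (127.3 against 181.1 to 198.3). MG_2 was high for CYB5A (37.54 CPM against 27.45 to 29.74) and low for MYLIP (1.39 against 2.335 to 2.583). HG_1 and MG_2 are the libraries whose counts rose with GC content, and the part of this in these values was not tested.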

How the results depend on the processing

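The 9 enzymes were called higher in all 21 alternatives, with a median log2 fold change between 0.63 (without MG_1) and 0.74 over single libraries left out and between 0.66 and 0.72 in the other settings. Of 734 values for the listed genes under these alternatives, 673 kept direction and side of the threshold, 27 lost a call, 27 gained one and 7 turned sign. All genes called higher and lower numbered 1138 and 1165 with all libraries, 1984 and 2051 without MG_2 and HG_1, 2457 and 2466 with 1 surrogate variable, and 1961 and 2004 with the GC and length offset, and between 798 (without HG_3) and 1469 (without HG_1) higher and 850 and 1524 lower with 1 library left out. The sign of CYB5A turned on FPKM values (0.11 and, with a pseudocount of 0.1, 0.12) and lay between -0.11 and 0.067 with libraries left out, and INSIG2 turned to -0.024 with the offset. The log2 ratio differences with 1 library left out were between -0.41 and -0.22 for SQLE to FDFT1, -0.027 and 0.12 for LSS to SQLE, 0.29 and 0.33 for MSMO1 to CYP51A1, -0.30 and 0.032 for EBP to NSDHL, -0.10 and 0.14 for SC5D to EBP, 0.042 and 0.17 for CYP51A1 to LSS, -0.35 and -0.11 for NSDHL to MSMO1, and 0.032 and 0.22 for DHCR7 to SC5D. EBP to NSDHL was 0.021 without MG_2 and HG_1. Apart from the smaller number of libraries, the cause was not tested. No paired analysis was possible because the HG labels carry letters where the MG labels carry numbers, and nothing in the labels says that a deposited MG column and the HG column of the same number form a pair. Depth did not limit the 9 enzymes, whose smallest count was 933.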

Other observations

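LBR and TM7SF2 both have sterol ring reductase activity. After their values were seen, the log2 ratio of their normalized counts was compared. LBR to TM7SF2 was -0.41 ± 0.43 in MG and -1.07 ± 0.47 in HG (SD, n = 5 each), a difference of -0.66 with overlapping groups and an exact two-sided permutation p of 0.0476 (0.0476 also after adjustment over the 2 pairs computed in this way). The lowest ratio in MG was that of MG_2 (-1.074) and the lowest in HG that of HG_1 (-1.829). Of the MG libraries only MG_2 lay within the range of HG. The part of GC content in this was not tested. The pair was chosen because one gene had passed the test between the groups and the other had not, so this p-value describes a choice made on the same libraries.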
